A study of Mus musculus with 120 samples.

Results

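The members described here are the mouse genes whose symbol is Zfp followed by a number, without Zfp36, which is a CCCH-type RNA-binding protein. The rule on symbols found 291 of the 12220 gene symbols of the deposited gene table, in 292 of 12252 rows, and 288 of the symbols are annotated as protein coding and 3 as pseudogenes (Zfp125, Zfp783 and Zfp939). They were measured in livers of CryKO mice, which lack Cry1 and Cry2 (Cry1-/- Cry2-/-), and of WT C57BL/6 mice, sampled every 4 h from ZT0 (lights on) to ZT20, with 2 replicates per time and so 12 livers per genotype. The WT mice were young adult males kept in a light-dark cycle and fed at night only. The age, sex and strain background of the CryKO mice are not given in the sources used here, so strain and genotype cannot be told apart. For each genotype, time and replicate number there are 5 libraries, which the study took from the same livers in WT, while for CryKO the sources used here do not say so. They are of nuclear polyadenylated RNA (NA), nuclear total RNA (NT), cytoplasmic polyadenylated RNA (CA), cytoplasmic total RNA (CT) and unfractionated total RNA (UT). A suffix E marks mRNA and a suffix I marks pre-mRNA, so that NAE is nuclear polyadenylated mRNA, CAE is cytoplasmic polyadenylated mRNA, NTI is nuclear pre-mRNA in total RNA and UTE is mRNA in the whole liver.

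Zinc finger proteins of the C2H2 type fold short loops around zinc, and an array of such fingers reads a stretch of DNA or, in some members, RNA or protein. The most numerous subfamily in mammals carries a KRAB box (Krüppel-associated box), which recruits the corepressor TRIM28 and with it the histone methyltransferase SETDB1, HP1 proteins and the NuRD complex. KRAB zinc finger genes arose by repeated local duplication, many of their proteins silence transposable elements, and many mRNAs of the family are long, short-lived and present at few copies.

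A search of the translated coding sequences of the GENCODE annotation found a KRAB box together with C2H2 fingers in 165 rows, and neither combination in 9. All other rows had C2H2 fingers without a match to the KRAB patterns searched. A KRAB box of diverged sequence would escape this search, so members without KRAB are members without such a match. The KRAB members had a median of 12 finger motifs and the members without KRAB a median of 8. A match to any of the KRAB patterns searched counted as a KRAB box. The 3 stretches shown next match 1 of these patterns, which lies in the KRAB A box. They are from 1 member lower in CryKO livers (Zfp809), 1 of the role list (Zfp30) and that with the highest nuclear enrichment (Zfp169). Capitals mark the codons of the residues that the search fixed, and coordinates are GRCm38.
Zfp809, chr9:22235038-22235070, plus strand: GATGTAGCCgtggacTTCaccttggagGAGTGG
Zfp30, chr7:29788067-29788099, plus strand: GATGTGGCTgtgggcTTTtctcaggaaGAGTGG
Zfp169, chr13:48498856-48498888, minus strand: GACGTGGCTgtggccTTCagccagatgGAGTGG

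The members are not spread evenly over the genome. Chromosome 7 holds 76 of them, chromosome 17 holds 37 and chromosome 13 holds 25. Within 250 kb of another member lie 132 of the 165 KRAB members and 50 members without KRAB. There are 7 position clusters of at least 6 members, with 81 members in all, of which the clusters at chr13:67038596-67827002 and chr17:21423227-22456689 hold 16 members each.

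Recent copies limit what a read can tell apart. The share of a member's 31-base words that also occur in transcripts of another gene had a median of 1.56%, it exceeded 10% in 70 members and 50% in 19, and it was 100% for Zfp965 and Zfp969. The stretch shown next is identical in Zfp965, Zfp966, Zfp970 and Zfp973 on chromosome 2, and its place in Zfp970 is given (plus strand). Reads that fall in it were shared out by the quantification, so values of these members, of Zfp433 (86.8%), Zfp993 (91.9%), Zfp991 (88%), Zfp984 (69.6%) and Zfp992 (48.3%) are uncertain.
Zfp970, chr2:177473293-177473352: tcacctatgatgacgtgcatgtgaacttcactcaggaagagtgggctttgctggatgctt

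Promoters of 242 member symbols were found in the RefSeq table (GRCm38.p6, 250 bases before to 50 bases after the start), 293 promoters in all. The 8-base word CCAATCAG, searched on both strands, occurred in 24.6% of the 167 promoters of KRAB members, 5% of the 120 promoters of members without KRAB and 4.1% of all 32851 promoters. This word was picked after all 32977 words of 8 bases had been compared, and promoters of recent copies are partly the same sequence, so the shares are a description only. In the KRAB members the match had a median position of -64.5 from the start site. The shorter word CCAAT, which this word contains, occurred in 55.1% of KRAB promoters, 40.8% of the others and 37.4% of all promoters, and the E-box CACGTG, bound by CLOCK and BMAL1, in 6.83% of member promoters and 7.15% of all promoters. Shown are 150 bases of promoter of 4 KRAB members, of which Zfp967 and Zfp867 are among the members lowest in CryKO cytoplasm, Zfp950 is among the most abundant in the nucleus and Zfp932 silences retroviral elements. Capitals mark the word.
Zfp967, chr2:176520884-176521033, plus strand: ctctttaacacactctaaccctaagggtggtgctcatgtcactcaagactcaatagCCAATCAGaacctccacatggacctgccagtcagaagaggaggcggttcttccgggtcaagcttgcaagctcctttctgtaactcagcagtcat
Zfp867, chr11:59472445-59472594, minus strand: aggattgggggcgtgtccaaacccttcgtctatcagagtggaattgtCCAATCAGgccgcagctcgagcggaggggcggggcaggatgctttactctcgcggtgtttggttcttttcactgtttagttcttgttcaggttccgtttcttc
Zfp950, chr19:61140811-61140960, minus strand: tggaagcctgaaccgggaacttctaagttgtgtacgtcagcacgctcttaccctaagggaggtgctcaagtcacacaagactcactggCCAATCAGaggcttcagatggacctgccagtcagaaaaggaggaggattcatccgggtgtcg
Zfp932, chr5:109996390-109996539, plus strand: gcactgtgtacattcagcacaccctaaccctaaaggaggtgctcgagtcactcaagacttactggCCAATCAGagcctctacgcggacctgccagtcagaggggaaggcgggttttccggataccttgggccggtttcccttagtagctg

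The libraries held 43.4 to 62.48 M counts of pre-mRNA and mRNA in NA, 31.8 to 46.7 M in NT, 17.42 to 26.68 M in CA, 7.07 to 23.33 M in CT and 26.69 to 42.8 M in UT. Hepatocyte markers summed to 52200 to 86800 CPM (mRNA counts scaled to a common library total) in CryKO CAE and 28000 to 83600 CPM in WT CAE. Of the targeted genes, Cry1 averaged 9.47 ± 1.36 CPM in CryKO UTE and 26 ± 17.9 CPM in WT UTE, and Cry2 averaged 17.4 ± 2.21 CPM and 45.2 ± 13.5 CPM (SD, n = 12 livers). In NAE both were higher in CryKO, with 71.5 ± 11.5 CPM for Cry1, against 31.3 ± 20.7 CPM in WT livers, and 196 ± 15.6 CPM for Cry2, against 137 ± 43 CPM in WT livers. Counts cover whole genes, and the deleted part of Cry1 and Cry2 is not given in the sources used here. A WT cytoplasmic library, that of ZT0 replicate 2, stands apart. In this liver Nr1d1 had 25.9 CPM in CAE and 6.35 CPM in NAE, against 0.704 CPM in CAE and 9.06 CPM in NAE of replicate 1. The UT library of CryKO ZT20 replicate 1 had 14.4% of its counts in pre-mRNA, and the next lowest UT library had 22.8%.

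Members were weakly expressed. Levels per length (RPKM, CPM per kilobase of mRNA) are described first, as means over 12 WT livers. In NAE the members had a median of 4.07 RPKM and all genes 7.09 RPKM, and in CAE the members had a median of 1.87 RPKM and all genes 5.88 RPKM. Under 1 RPKM in CAE lay 87 of 291 members (29.9%), against 18.4% of all genes. Highest in the nucleus was Zfp970, a KRAB member with many copies, with 45.6 RPKM in the lowest, 146 RPKM in the median and 447 RPKM in the highest WT liver. It was followed by Zfp445, which maintains imprints together with Zfp57 (63, 85.9 and 128 RPKM), and by Zfp207, a spindle assembly factor (61.9, 76.1 and 86.7 RPKM). Zfp809, which silences retroviruses of the murine leukaemia type, averaged 71.5 ± 29.5 RPKM (SD, n = 12) and Zfp950 had 47.1, 70.6 and 93.3 RPKM. The ranges of Zfp445, Zfp207, Zfp809 and Zfp950 overlapped, so their order in the nucleus does not exceed the spread between livers.

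In the cytoplasm the order was another. Zfp706, a small protein with a single finger motif, led with 90.1 ± 14.7 RPKM (SD, n = 12) and 67.9 RPKM in its lowest WT liver, followed in the lowest, median and highest liver by Zfp970 (10.2, 36.5 and 151 RPKM) and Zfp969 (0, 37.7 and 133 RPKM). Zfp787 had 15.4, 31.9 and 44.1 RPKM and Zfp638 had 16.9, 25.9 and 45.5 RPKM. Only Zfp706 lay above Zfp787 and Zfp638 in all livers. Zfp969 was listed at 0 in NAE of all 12 WT livers, over a counted length of 252 bases that are all shared with other genes, and its level cannot be taken as its own.

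**Figure D1:**
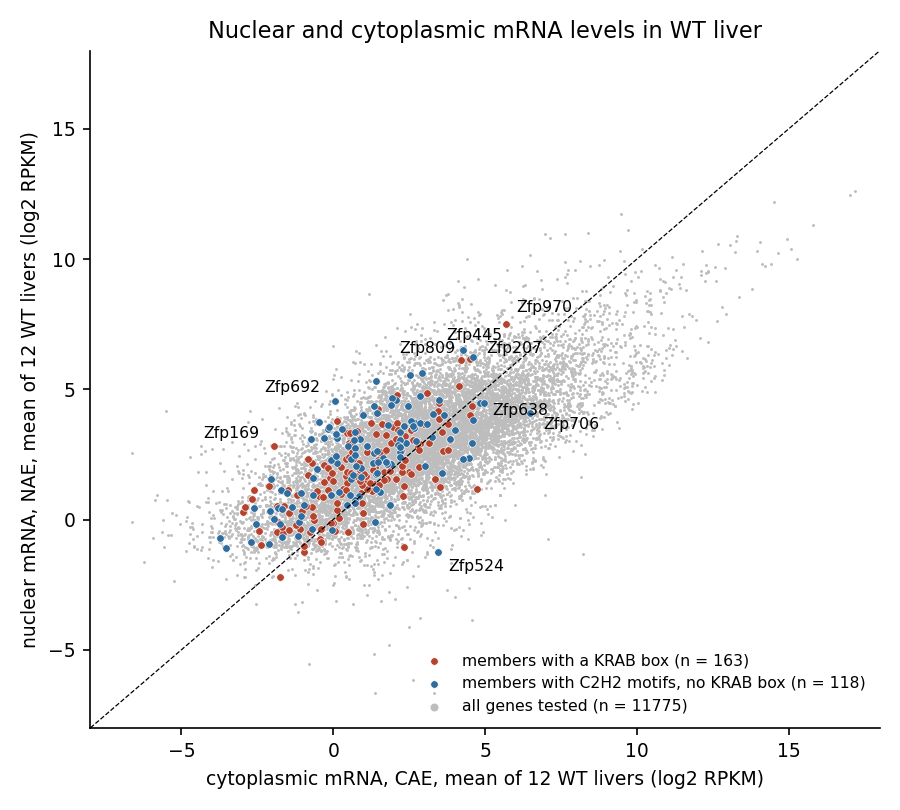
Nuclear (NAE, vertical axis) against cytoplasmic (CAE, horizontal axis) mRNA level of each gene in WT liver, as log2 of the mean RPKM of 12 livers, with KRAB members in red, members without KRAB in blue and all genes tested in grey. Most members lie above the dashed line of equal scaled values, Zfp706 and Zfp524 lie below it, and Zfp970, Zfp445 and Zfp207 lie at the upper end.

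As a share of all mRNA counts, the members made up 1.07% to 1.25% in the nucleus (NAE) and 0.199% to 0.301% in the cytoplasm (CAE) of CryKO livers. In WT livers they made up 1.03% to 1.21% of NAE and 0.149% to 0.274% of CAE, and in both genotypes the 2 compartments did not overlap. Pre-mRNA was a larger part of the members' own counts in cytoplasmic and in unfractionated RNA than it was for all genes. These shares are of summed counts, in which abundant genes weigh most. In CA it was 7.90% of the members' counts in CryKO livers and 7.89% in WT livers, against 1.61% and 1.36% for all genes in the same genotypes (medians of 12 livers). KRAB members had 13.7% in CryKO livers and 12.8% in WT livers, and members without KRAB had 3.15% and 2.89%. In CT the members had 13.2% in both genotypes, against 4.69% in CryKO livers and 4.06% in WT livers for all genes. In UT the members had 53.9% in CryKO livers and 48.9% in WT livers, against 31.4% and 25.2% for all genes. In NA, by contrast, members and all genes were close, with 43.1% and 45.8% in CryKO livers and 43.7% and 42.5% in WT livers. Transcripts annotated as retained introns made up 7.27% of the members' mRNA counts in NAE and 2.39% in CAE of WT livers, against 12.7% and 2.02% for all genes.

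The comparison of nucleus and cytoplasm asks in which compartment the polyadenylated mRNA of a member is enriched relative to other genes. The scaling centres the ratios on those of other genes, so they do not measure molecules per cell. The paper scaled its levels to counts of molecules and found transcripts to be more abundant in the cytoplasm. In WT livers 69 of 288 members tested were higher and 4 were lower in NAE than in CAE when a log2 difference of more than 2 in size was required beside an adjusted p under 0.01 (edgeR quasi-likelihood test, Benjamini-Hochberg over all genes). Over all genes tested, 16.1% were called higher and 13.4% lower. At any fold change 198 members were higher and 26 were lower at the same adjusted p, against 42.8% and 36.8% of all genes. The members had a median log2 NAE/CAE of 1.03 and all genes a median of 0.16. In each of the 12 WT livers separately, 174 members (60.4%) had more normalised counts in the nucleus and 17 (5.9%) had fewer, against 37.7% and 31.9% of all genes. With library sizes in place of TMM factors the counts were 98 higher and 4 lower, while the median of all genes moved to 0.54 and that of the members to 1.40.

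The members farthest to the nuclear side were called with wide margins. CPM values given from here on are scaled within each comparison and can differ between comparisons. Zfp169 had 12.4, 23 and 42.9 CPM in the lowest, median and highest nuclear library, against 0, 0.944 and 1.52 CPM in the cytoplasm, and a log2 NAE/CAE of 4.81 (SE 0.33, adjusted p = 2.09e-13). It is a KRAB member with 17 finger motifs at chr13:48487647-48513451. Zfp692, a repressor of gluconeogenic genes that responds to AMP-activated kinase, had 30.1, 43.8 and 68.8 CPM in the nucleus and 0.925, 1.85 and 2.90 CPM in the cytoplasm, and a log2 ratio of 4.54 (SE 0.17, adjusted p = 4.45e-19). Zfp653, a transcriptional repressor, followed with 4.32 (SE 0.19). The nuclear and cytoplasmic libraries did not overlap for any of the 3. The next members by the same rule were Zfp14 at 3.89, Zfp329 at 3.81, Zfp579 and Zfp276 at 3.69 and Zfp966 at 3.67, also with no overlap between compartments.

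Members on the cytoplasmic side were few. Zfp706 had 24.9, 35.7 and 40.3 CPM in the nucleus and 150, 194 and 263 CPM in the cytoplasm, with a log2 NAE/CAE of -2.5 (SE 0.10, adjusted p = 1.3e-18). Its gene lies at chr15:36997027-37007773, and 8.74% of its 31-base words are shared with other genes. The other 3 called were Zfp524 at -4.70, Zfp965 at -3.37 and Zfp993 at -3.20, whose shared 31-base words came to 53.7%, 100% and 91.9%. Zfp622, which takes part in maturation of the large ribosomal subunit, had a log2 ratio of -1.62 (SE 0.10), past the adjusted p but not the fold threshold, with 6.56, 7.56 and 9.15 CPM in the nucleus and 17.5, 23.4 and 31.6 CPM in the cytoplasm.

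KRAB members and members without KRAB moved to the same side. Of the 288 members tested 163 were KRAB members and 7 belonged to neither class. Of the KRAB members 31 were higher and 2 lower in the nucleus, with a median log2 ratio of 0.94, and of the members without KRAB 36 were higher and 2 lower, with a median of 1.19. Over all genes 16.1% were called higher and 13.4% lower, so the share of KRAB members called higher is near that of all genes. Among members with at most 10% shared 31-base words, 58 of 219 were higher and 1 was lower, with a median of 1.18. By the number of finger motifs, members with 15 or more had 22 of 59 higher and none lower and a median of 1.5, those with 10 to 14 had 18 higher and none lower and a median of 0.86, those with 5 to 9 had 18 of 78 and 0.92, and those with 1 to 4 had 9 of 35 and 1.01.

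Length of the mRNA is a property along which the nuclear share of all genes moves. Members had a median mRNA length of 2925 bases and all genes 2344 bases. Across genes, mRNA length and log2 NAE/CAE had a Spearman rho of 0.315 over 287 members and 0.469 over 11738 genes, a description in which all genes share the same libraries. Within bins of length the members still lay above all genes. Up to 1500 bases the medians were 0.31 for 30 members and -1.41 for 3079 genes, from 2000 to 3000 bases they were 0.67 for 93 members and 0.28 for 2759 genes, and above 5000 bases they were 1.99 for 42 members and 1.32 for 1372 genes. By GC content, the median was 0.43 for the 85 members up to 42% GC and -0.22 for all 1075 genes of that bin, and 1.37 for the 32 members above 57% GC and 0.66 for all 1427 genes.

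**Figure D2:**
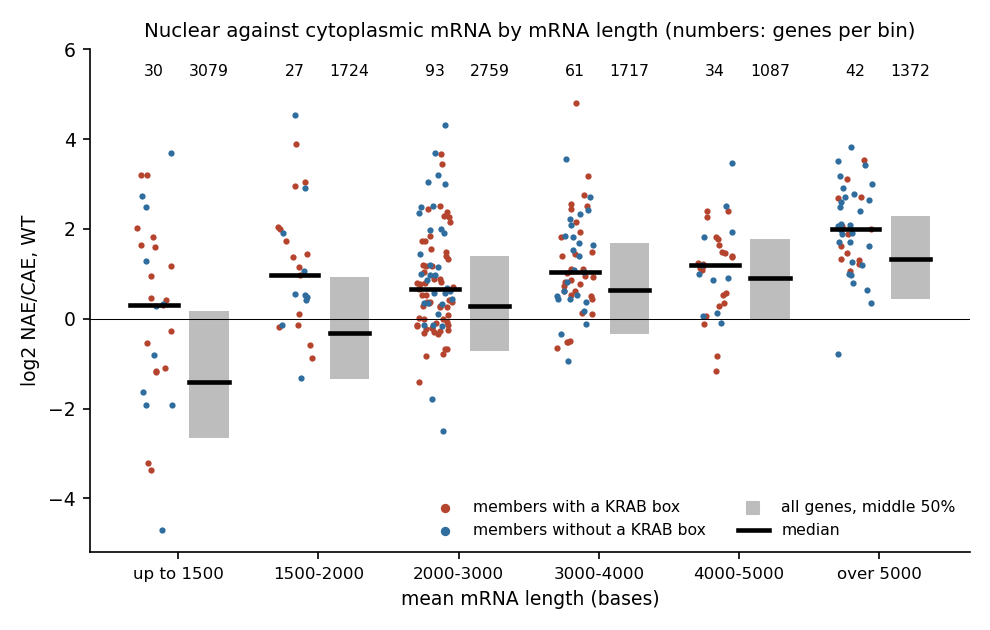
Log2 NAE/CAE in WT livers (vertical axis) of single members in bins of mRNA length in bases (horizontal axis), with KRAB members in red, members without KRAB in blue, black lines for the median of all members in the bin and grey boxes for the middle 50% of all genes with their median. The member median lies above that of all genes in each of the 6 bins, by most in the shortest one (0.31 against -1.41).

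In total RNA, 54 of 277 members were higher in NTE and 6 were lower than in CTE of the same WT livers, against 12.7% and 10.9% of all genes, with a median log2 ratio of 1.03 for members and 0.10 for all genes. Called higher in both RNA preparations were 43 members, which is 62.3% of those called in polyadenylated RNA and 79.6% of those called in total RNA. This comparison depended on the scaling: with library sizes in place of TMM factors only 10 members were higher and 20 were lower, and the medians moved to -0.27 for members and -1.21 for all genes, so that members stayed on the nuclear side of all genes but not of 0. In CryKO livers 72 of 288 members were higher and 5 were lower in NAE than in CAE, against 14.5% and 13.4% of all genes. Of the 72, 62 (86.1%) were also called in WT livers.

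Of 29 members listed for a known role, 25 were in the gene table and Zfp57, Zfp462, Zfp423 and Zfp521 were not analysed here. In WT livers 7 of the 25 were called higher in the nucleus and none lower (edgeR), against 16.1% and 13.4% of all genes. Among transcription factors, Zfp384 had 97.3, 125 and 160 CPM in the nucleus and 10.9, 15.5 and 19.2 CPM in the cytoplasm (log2 ratio 3.01, SE 0.11), Zfp335, a subunit of a histone methyltransferase complex, had a log2 ratio of 3.47 (SE 0.44), and Zfp143, an activator of snRNA genes, had 2.35 (SE 0.43). By contrast Zfp148 and Zfp281 had ratios of 0.97 and 1.0, under the fold threshold. The E3 ligase Zfp91, counted in the row with the annotated gene, had 63.6, 77.4 and 87 CPM in the nucleus and 64.2, 142 and 171 CPM in the cytoplasm (log2 ratio -0.80).

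Among members that act on RNA and translation, Zfp598, which ubiquitinates collided ribosomes, averaged 162 ± 38.8 CPM in the nucleus and 24.8 ± 5.46 CPM in the cytoplasm (SD, n = 12), with no overlap (log2 ratio 2.71, SE 0.14). Its protein works on cytoplasmic ribosomes. Its mRNA was called higher in the nucleus relative to other genes, which does not tell where most copies lie. Zfp207 lay just under the threshold at 1.97 (SE 0.09), Zfp106, an RNA-binding protein, at 0.64 and Zfp326, a subunit of a splicing complex, at 0.53. Zfp318 (2.48, SE 0.11) and Zfp292 (3.01, SE 0.14) were higher in the nucleus, while the SUMO ligase Zfp451 had 1.19 and Zfp644 had 1.71. Of the listed members tied to adipose or liver metabolism, the ratio was -0.82 for Zfp467, which promotes adipogenesis, 1.61 for Zfp516, a regulator of brown fat, -0.36 for Zfp125, described in mouse liver as a target of FoxO in fasting, 0.34 for Zfp189 and -0.49 for Zfp30, and none of these passed the fold threshold.

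Comparing CryKO with WT livers asks whether the mean level of a member over the day differs between them, with time as a factor. Loss of Cry1 and Cry2 cannot be told apart from strain in this contrast. In whole bulk tissue fewer cells of a type and less RNA per cell cannot be told apart. In nuclear pre-mRNA (NTI), 164 of 274 members were higher and 5 were lower in CryKO at an adjusted p under 0.05 (edgeR), against 48.8% and 3.65% of all genes. The median log2 CryKO/WT was 0.44 for members and 0.34 for all genes, a shift that rests on the scaling by mRNA: with TMM factors from pre-mRNA the medians were 0.10 and 0.00 and the counts were 54 higher and 30 lower, and with library sizes 43 higher and 30 lower. In values scaled by mRNA, all 12 CryKO values lay above all 12 WT values for 22 members (8.03%), against 4.03% of all genes. GC content moved with the NTI difference, with a Spearman rho of -0.372 over 273 members and -0.479 over 11109 genes. Up to 42% GC the medians were 0.49 for 80 members and 0.58 for 1011 genes. Above 57% GC they were 0.05 for 30 members and 0.00 for 1315 genes. The part of GC content in the NTI difference was not tested.

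In nuclear mRNA (NAE) few members differed. Higher in CryKO were 25 of 289 and lower were 8, against 8.03% and 9.11% of all genes, with a median of 0.07 for members and 0.00 for all genes. Of members without KRAB 13 were higher and none was lower (edgeR, 32 at an unadjusted p under 0.05), and of KRAB members 11 of 163 were higher and 6 lower, but with library sizes the counts were 8 and 3 for members without KRAB and 3 and 11 for KRAB members.

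In cytoplasmic mRNA (CAE), 24 of 277 members were higher in CryKO and 50 were lower, against 17.2% and 18.8% of all genes. The lower members were mostly KRAB members: 40 of 157 KRAB members were lower and 7 higher (median -0.20), while 9 members without KRAB were lower and 17 higher (median 0.08). With library sizes the counts were 31 higher and 13 lower for KRAB members and 57 higher and 0 lower for the others (63 at an unadjusted p under 0.05), and the medians moved to 0.13 and 0.42 while that of all genes moved from 0.01 to 0.36, so that the direction against WT turned with the scaling and the distance between the groups did not. Among KRAB members with at most 10% shared 31-base words, 23 of 100 were lower and 5 higher.

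In whole liver mRNA (UTE) the classes lay the other way round. Of 282 members 75 were higher in CryKO and 47 were lower, against 22.6% and 26.2% of all genes. KRAB members had 54 higher and 7 lower of 158 (median 0.28), members without KRAB 20 higher and 37 lower (median -0.06), and 8 members were of neither class. With library sizes in place of TMM factors 49 of all members were higher and 59 lower, so the larger side turned with the scaling. GC content moved with this contrast over the whole table. The Spearman rho of GC with log2 CryKO/WT was -0.717 over 282 members and -0.648 over 11683 genes in UTE, against 0.426 and 0.121 in CAE. KRAB members had a median GC of 42.2%, members without KRAB 51.3% and all genes 49.9%. With offsets for GC in each library, an alternative chosen after seeing the data, UTE had 27 members higher and 28 lower, with 19 and 10 of the KRAB members and a median of 0.04, while CAE still had 11 KRAB members higher and 35 lower. The part of RNA or library composition in these differences was not tested.

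Libraries and other cells moved with the contrast in UTE too. Without the CryKO ZT20 replicate 1 library 127 members were higher and 50 lower in UTE, and the pre-mRNA share of all UT counts had a median of 31.4% in CryKO livers and 25.2% in WT livers. Summed markers of endothelial cells were at 291 to 394 CPM in CryKO UTE and 191 to 314 CPM in WT UTE, with 4 of 4 markers called higher, and in CAE they were at 54.3 to 72.2 CPM and 49.1 to 134 CPM, with 1 of 4 higher and 1 lower. Other cell types had called markers in UTE too. Hepatocytes had 0 higher and 2 lower of 5, stellate cells 1 and 1 of 4, and cholangiocytes 0 and 1 of 2. Leukocytes had 1 higher and 0 lower of 3, erythroid cells 0 and 1 of 3, and Kupffer cells 0 and 0 of 4. The part of these libraries and cells in the members' differences was not tested.

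**Figure D3:**
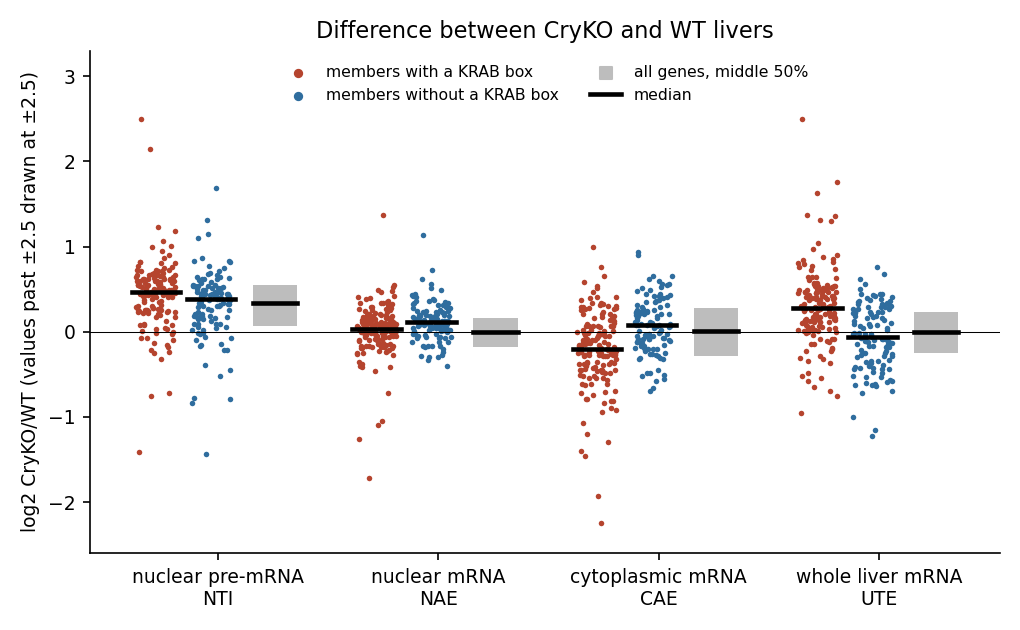
Log2 CryKO/WT of single members (vertical axis) in nuclear pre-mRNA, nuclear mRNA, cytoplasmic mRNA and whole liver mRNA, with KRAB members in red, members without KRAB in blue, black lines for medians and grey boxes for the middle 50% of all genes. The KRAB median is -0.20 in CAE and 0.28 in UTE, and that of members without KRAB is 0.08 and -0.06, while most NTI values lie above 0, as those of all genes do. Values past ±2.5 are drawn at ±2.5.

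**Figure D4:**
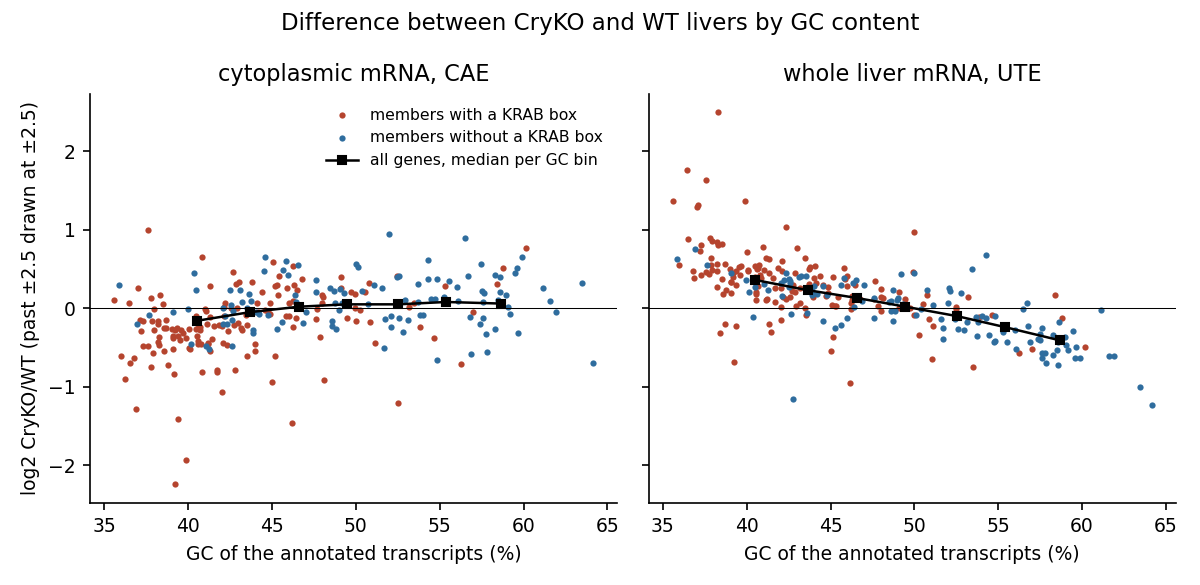
Log2 CryKO/WT (vertical axis) against GC content of the annotated transcripts in percent (horizontal axis) in cytoplasmic mRNA (left) and whole liver mRNA (right), with KRAB members in red, members without KRAB in blue and the median of all genes in bins of GC as black squares. In UTE the members follow the slope of all genes (rho -0.717 and -0.648), and in CAE the KRAB members of low GC lie below the line of all genes. Values past ±2.5 are drawn at ±2.5.

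Zfp809 was lower in CryKO livers in all 4 populations compared. In CAE it had 5.4, 9.02 and 13.9 CPM in the lowest, median and highest CryKO liver, against 17.5, 22.8 and 40.6 CPM in WT livers, with no overlap (log2 CryKO/WT -1.46, SE 0.17, edgeR adjusted p = 3.86e-06). In NAE it averaged 83.3 ± 31.5 CPM in CryKO livers and 171 ± 71 CPM in WT livers (SD, n = 12 each), and the log2 difference was -1.05 (SE 0.20), in UTE -0.95 (SE 0.16) and in NTI -0.71 (SE 0.23). Its gene lies at chr9:22225714-22243354, has 7 finger motifs and shares 0.28% of its 31-base words with other genes. None of the 4 calls was lost when any library was left out.

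Other KRAB members were lower in CryKO cytoplasm with smaller or no differences elsewhere. Zfp867 had 2.21, 3.52 and 5.60 CPM in CryKO CAE and 5.50, 7.56 and 9.63 CPM in WT CAE (log2 -1.07, SE 0.15, edgeR adjusted p = 2.77e-05), while its NAE difference was -0.26 (SE 0.20, adjusted p = 0.407). Zfp967 had 4.12, 9.03 and 14.1 CPM in CryKO CAE and 8.74, 23.7 and 53.5 CPM in WT CAE (-1.41, SE 0.20), with 0.29 (SE 0.14) in NAE and 0.62 (SE 0.11, adjusted p = 0.000119) in NTI. CryKO and WT livers overlapped for both, and no shared share of words could be given for Zfp967. Zfp993 (-2.24), Zfp969 (-1.93) and Zfp992 (-1.29) were lower as well, and for these 3 at least 48.3% of the 31-base words are shared. The call of Zfp969 was lost in 19 of 24 fits that left out 1 library.

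**Figure D5:**
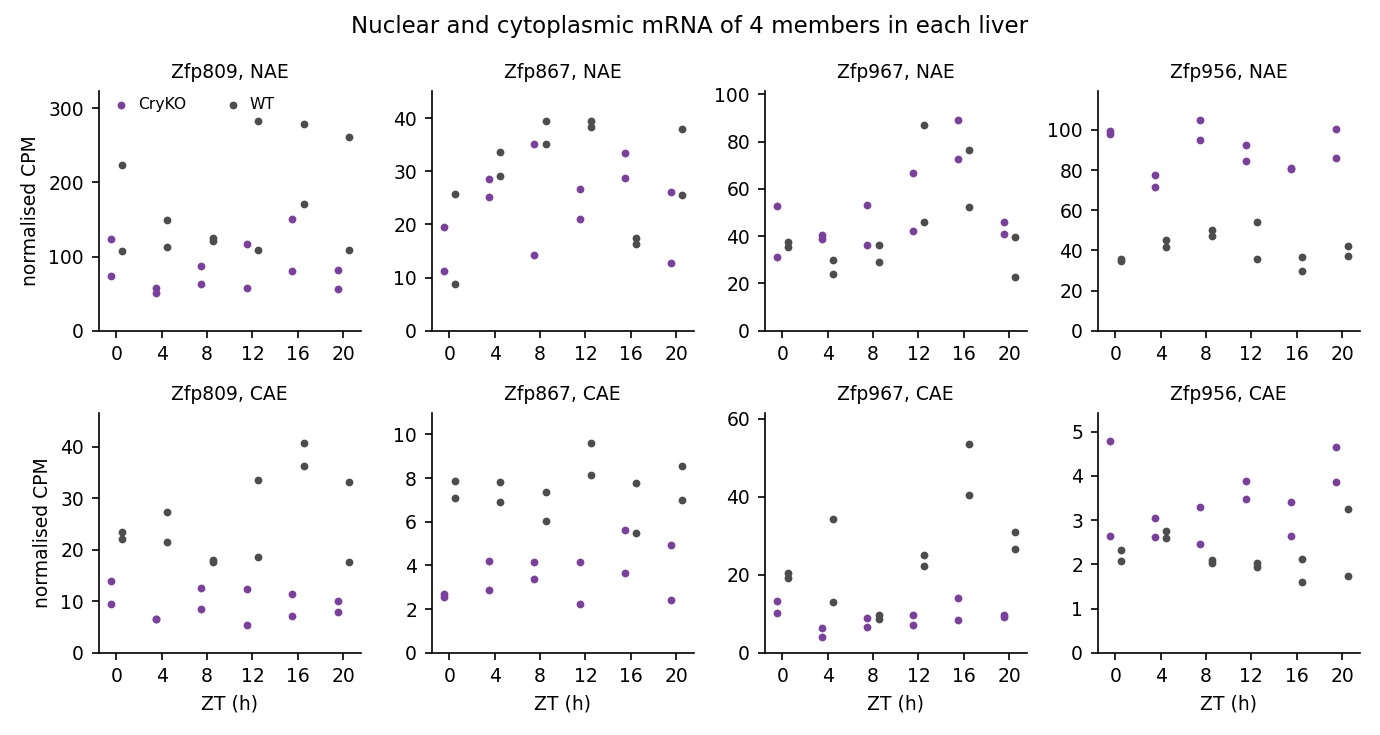
Normalised CPM (vertical axes) of Zfp809, Zfp867, Zfp967 and Zfp956 at each ZT in hours (horizontal axes), in NAE (upper row) and CAE (lower row), with 1 point per liver, CryKO in purple and WT in dark grey. In CAE the CryKO points of Zfp809 lie below all WT points, and in NAE the CryKO points of Zfp956 lie above all WT points.

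Zfp956, which has C2H2 fingers and no match to the KRAB patterns searched, was higher in CryKO livers. It averaged 89.4 ± 10.5 CPM in CryKO NAE and 40.8 ± 7.21 CPM in WT NAE (SD, n = 12 each) (log2 1.14, SE 0.08, edgeR adjusted p = 2.75e-08), with no overlap, and was higher by 1.14 in NTI, 0.62 in CAE and 0.68 in UTE. The pseudogene Zfp783 had 8.74, 11.8 and 14.8 CPM in CryKO NAE and 0.105, 1.13 and 1.95 CPM in WT NAE (3.40, SE 0.28). The 2 genes overlap on the plus strand of chromosome 6, Zfp783 at 47943171-47955913 and Zfp956 at 47953390-47965300, so that reads of the overlap cannot be assigned with certainty. Zfp982, a KRAB member with 24% shared words, was higher in NAE (1.37, SE 0.20), CAE (1.0, SE 0.27) and UTE (1.63, SE 0.28), and its CryKO and WT livers overlapped in all of them. It lies at chr4:147492417-147513486, in a stretch of chromosome 4 that also holds Zfp984, higher in UTE (1.76), and Zfp991, Zfp992 and Zfp993, lower in NAE (-1.09, -0.72 and -1.26).

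Further members are given by the population in which their difference was among the widest, and several were called in other populations too. In CAE, Zfp609 (0.94), Zfp395 (0.90), Zfp871 (0.66), Zfp11 (0.65) and Zfp574 (0.65) were higher, and of these Zfp574 was lower in UTE (-0.63) while Zfp871 was higher there (0.43). In NAE, Zfp618 (0.72), Zfp142 (0.62) and Zfp820 (0.52) were higher and Zfp655 (-0.46) was lower, a call lost in 9 of 24 fits that left out 1 liver, and Zfp655 was lower in CAE too (-0.61). In UTE, Zfp771 had 3.80, 4.97 and 6.94 CPM in CryKO livers and 7.0, 11.6 and 17.7 CPM in WT livers (-1.23, SE 0.13), and Zfp628 (-1.01), Zfp703 (-0.87), Zfp324 (-0.75) and Zfp865 (-0.72) were lower as well, while Zfp783 (1.67), Zfp758 (1.37) and Zfp973 (1.36) were higher. Zfp771 was lower in CAE too (-0.70). Zfp965 was higher in UTE by 4.17 on the log2 scale, at 0.823, 1.74 and 2.35 CPM in CryKO livers against 0, 0.0055 and 0.388 CPM in WT livers, with no base of it distinguishable from its copies. In NTI, Zfp78 (2.52), Zfp719 (1.68), Zfp346 (1.31), Zfp788 (1.18) and Zfp58 (1.06) were higher and Zfp579 (-0.77), Zfp358 (-0.51), Zfp219 (-0.45) and Zfp687 (-0.40) were lower. Of these Zfp358 was lower in UTE (-0.43) but higher in CAE (0.40). The NTI call was lost in 13 of 24 fits without 1 liver for Zfp78, in 14 for Zfp358 and in 7 each for Zfp788 and Zfp579.

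Of the 25 members with a listed role, 1 was higher and 5 were lower in CAE, against 17.2% and 18.8% of all genes, 2 and 2 in NAE, against 8.03% and 9.11%, and 5 and 8 in UTE, against 22.6% and 26.2%. In NTI 13 were higher and 1 lower of 26 rows, since Zfp91 has 2 rows there, against 48.8% and 3.65% of all genes. The share lower in CAE, that higher in UTE and both shares in NAE and in NTI are near those of all genes. Zfp125 had 1.89, 3.59 and 5.84 CPM in CryKO CAE and 5.90, 6.49 and 11.3 CPM in WT CAE (log2 -0.98, SE 0.15, edgeR adjusted p = 7.58e-05), groups that do not overlap, and was lower in NAE (-0.63) and UTE (-0.58) too. Of its 31-base words 49.1% are shared. Zfp467 was lower in CAE (-0.56, SE 0.15) and UTE (-0.70, SE 0.12), Zfp638 was lower in CAE (-0.49, SE 0.13) and Zfp932 was lower in CAE (-0.43, SE 0.15, lost in 6 of 24 fits without 1 liver) and higher in UTE (0.85, SE 0.20). Zfp326 was higher in CAE (0.45, SE 0.11). For Zfp445 the CryKO difference was -0.29 in NAE (SE 0.13, adjusted p = 0.125) and -0.26 in CAE (SE 0.19, adjusted p = 0.286), neither past the threshold.

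The NAE/CAE ratio itself was compared between genotypes as an interaction. It was higher in CryKO for 16 of 289 members and lower for 1, against 3.61% and 4.86% of all genes, and 12 of the 16 were KRAB members, of which none was lower (edgeR, 43 of 163 at an unadjusted p under 0.05). With libraries of the same number as a block, which should mark 1 liver in WT but may not in CryKO, 27 members were higher and 7 lower. DESeq2 gave 33 higher and 1 lower. With library sizes 3 were higher and 63 lower, and the median of all genes moved from -0.05 to -0.44, so the direction holds only relative to other genes. For Zfp967 the log2 ratio of libraries with the same number, which may not mark 1 liver in CryKO, was 0.167, 1.46 and 2.30 in the lowest, median and highest CryKO pair, against -1.55, -0.116 and 0.876 in WT livers (difference 1.65, SE 0.25, adjusted p = 0.00011). Zfp433 (3.73), Zfp971 (1.14), Zfp90 (0.92), Zfp688 (0.87), Zfp467 (0.79), Zfp956 (0.48) and Zfp638 (0.47) had higher ratios in CryKO, and the ratio of Zfp326 was lower (-0.44). The call was lost in 20 of 24 fits without 1 liver for Zfp638, in 7 for Zfp326 and in 1 for Zfp467, that without WT ZT0 replicate 2. The count of 17 members ranged from 10, without CryKO ZT0 replicate 2, to 29, without CryKO ZT8 replicate 1.

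Rhythms over 24 h were tested in each population with a cosine and a sine. In WT livers 10 of 279 members were rhythmic in UTE at an adjusted p under 0.05 (edgeR), against 10.6% of all genes, and 2 of 276 in CAE, against 2.91%. DESeq2 called 29 members in UTE and 8 in CAE. None of 289 was rhythmic in NAE, against 2.28% of all genes, and none of 274 in NTI, against 0.563%, with 28 and 15 members at an unadjusted p under 0.05 and 13 and 3 called by DESeq2. In CryKO livers no member was rhythmic in NAE, where 38 had an unadjusted p under 0.05 and DESeq2 called 6 and 0.0169% of all genes were called, nor in CAE, where 7 had an unadjusted p under 0.05 and DESeq2 called 0 and 0% of all genes were called. A difference in rhythm between CryKO and WT was called for no member in NAE, against 0.7% of all genes, or in CAE, against 0.698%, with 16 and 25 members at an unadjusted p under 0.05 and 1 called by DESeq2 in each.

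Zfp970 was rhythmic in CAE and UTE. In WT CAE its 2 livers per time had 28.8 and 14.4 CPM at ZT0, 18.6 and 8.17 at ZT4, 17.1 and 20.7 at ZT8, 39.2 and 62.1 at ZT12, and 29.5 and 42.6 at ZT20, and at ZT16 the lower of the 2 had 92 CPM. Both livers at ZT16 exceeded all others, and the fitted curve spanned 2.76 on the log2 scale from trough to peak and peaked at ZT 15.8 (adjusted p = 0.00379, edgeR). In UTE it spanned 1.76 with a peak at ZT 15.2 (adjusted p = 0.0201), and in NAE 1.96 at an adjusted p of 0.0563. In CryKO CAE the span was 0.66 (adjusted p = 0.87), but the difference between genotypes was not called (adjusted p = 0.267). Of its 31-base words 67.9% are shared with other genes, so this pattern may hold reads of its copies.

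Zfp276 was the other rhythmic member of CAE, with a span of 1.2 and a peak at ZT 12.4 (edgeR adjusted p = 0.0445), a call that was lost in 11 of 12 fits that left out 1 liver. In UTE, Zfp629 had 11.4 and 13.1 CPM at ZT0, 18 and 17.8 at ZT4, 21 and 21.9 at ZT8, 19 and 13.6 at ZT12, 13.1 and 12.5 at ZT16, and 13.5 and 11.2 at ZT20 (span 0.83, peak at ZT 7.8, adjusted p = 0.00821). Zfp526 (span 0.78), Zfp467 (0.66) and Zfp358 (0.66) peaked between ZT 7.1 and ZT 8.4 as well, and Zfp341 (1.21) peaked at ZT 19.9. These calls were lost in 6, 7, 8 and 11 of 12 fits without 1 liver, in the order given, and that of Zfp970 in 3. The other rhythmic members of UTE were Zfp362, Zfp275, Zfp652 and Zfp664. Of these 10 only Zfp970 is a KRAB member. The count of 10 ranged from 4, without WT ZT8 replicate 2, to 17, without WT ZT4 replicate 1.

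The 7 position clusters differed among themselves. Over all genes 22.6% were higher and 26.2% lower in CryKO UTE, 17.2% and 18.8% in CryKO CAE, and 16.1% were higher in the WT nucleus. For all genes of at most 42% GC the median log2 CryKO/WT was 0.36 in UTE and -0.16 in CAE. The cluster at chr17:21423227-22456689, all 16 of whose members carry a KRAB box, had 1 member higher in the WT nucleus (median log2 NAE/CAE 0.40), 9 higher and 0 lower in CryKO UTE and 0 higher and 2 lower in CryKO CAE (edgeR, medians 0.54 and -0.22). The cluster at chr13:67038596-67827002, with 15 KRAB members of 16, had 8 higher and 0 lower of 15 in UTE and 0 higher and 2 lower in CAE (medians 0.54 and -0.28). In these 2 clusters the share lower in CAE was not above that of all genes. At chr7:127233061-127885996, with 4 KRAB members of 10, 5 members were lower and 0 higher in UTE (median -0.27), and 3 lower and 0 higher in CAE (edgeR, median 0.03). Other clusters rich in KRAB members had medians nearer 0 in CryKO UTE and CAE than those at chr17:21423227-22456689 and chr13:67038596-67827002. At chr7:24081924-24316666, with 8 KRAB members of 9, the medians were 0.10 in UTE and 0.18 in CAE. Of these 2 populations only UTE had a member called, 1 higher. In NTI, where 48.8% of all genes were higher, 4 of 7 members were higher there. At chr7:29768552-30169750, with 9 of 13, they were 0.02 in UTE and 0.07 in CAE, and at chr17:32765496-33631779, with 9 of 10, they were 0.26 and -0.11. At chr6:47835661-48086593, with 2 of 7, 2 members were higher and 2 lower in UTE and 3 higher and 0 lower in CAE (medians -0.12 and 0.32).

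Cofactors of KRAB proteins were counted for the 16 genes of a fixed list that were tested. In WT livers 5 of them were higher in NAE than in CAE and 1 was lower. Over all genes these shares were 16.1% and 13.4%. In CryKO CAE 6 were higher and 1 lower than in WT, against 17.2% and 18.8% of all genes, and in UTE 4 were higher and 3 lower, against 22.6% and 26.2%. In CAE Trim28, the corepressor that KRAB boxes bind, had 22.7, 34.1 and 44.8 CPM in CryKO livers and 12.4, 21 and 42.1 CPM in WT livers (log2 0.62, SE 0.15, edgeR adjusted p = 0.00355). Cbx5, which codes for an HP1 protein, had 24.3, 34.6 and 44.1 CPM in CryKO livers and 9.54, 23.4 and 33.1 CPM in WT livers (0.64, SE 0.13), and the groups of both genes overlapped. The deacetylase gene Hdac2 was lower in CAE (-0.42, SE 0.10), and Setdb1 had 0.22 there (SE 0.10, adjusted p = 0.0911), not past the threshold. The direction differed between populations: in UTE Trim28 was lower in CryKO (-0.17, SE 0.06, edgeR adjusted p = 0.0263) and Hdac2 higher (0.26, SE 0.10). In NTI both were higher (0.47 and 0.56), as were 48.8% of all genes, a shift that rests on the scaling by mRNA. Of 2 other families of DNA-binding zinc finger genes, Zbtb had 10 of 32 higher and 1 lower in the nucleus (median 1.43) and 7 higher and 0 lower in CryKO CAE (edgeR, 12 at an unadjusted p under 0.05), and Klf had 1 higher and 1 lower of 12 (median 0.29) and 3 higher and 0 lower. With library sizes the median of all genes in CryKO CAE rose, as given above, and Zfp members turned from 24 higher and 50 lower to 90 and 14. The CAE counts given here hold relative to other genes only.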

How the data were processed

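Estimated counts of pre-mRNA and mRNA per gene and transcript, made by the authors with kallisto 0.46.0 (GRCm38, stranded reads) and deposited without normalization, were used from 120 libraries. Isoforms of low expression had been left out by the authors. Repeated rows (131) were merged, and counts were rounded to whole numbers for tests. Counts were analysed with edgeR 4.0.16 (quasi-likelihood, TMM factors from mRNA counts) in R 4.3.3, and with DESeq2 1.42.0 as an alternative, for rows with 10 counts or more in 6 libraries (fits of 12), 12 (fits of 24) or 24 (fits of 48). Nucleus and cytoplasm were compared without covariates, genotypes with time as a factor, and rhythms with a cosine and sine of 24 h. P-values were adjusted over all genes tested. CPM refers to mRNA counts. Log2 ratios per liver were taken after adding 0.1 CPM.

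Members and lists were chosen with earlier results of these data known. Members named are the 5 highest in NAE and in CAE per length, up to 8 called on each side of the nucleus/cytoplasm comparison with at least 1 CPM and the same direction in 12 of 12 livers, up to 6 called on each side per genotype comparison, up to 6 rhythmic ones per population, up to 5 with differing ratios, and members of a list of known roles. Names such as Zfp956 in the ratio comparison and the last 4 rhythmic ones in UTE were added after their values were seen.

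Motifs, GC content and shared 31-base words were computed from GENCODE M21 coding and transcript sequences (GRCm38). Alternatives were other scalings, DESeq2, no filter, a replicate block, leaving out each liver, and GC offsets in 20 bins. Tests were run on simulated counts too, drawn independently for each library and scored at any fold change. That run does not cover paired libraries, the fold threshold or shifts of scaling and GC. The study describes 12 WT mice whose livers gave all populations, so a shared number should mark 1 WT liver, and for CryKO this is not given in the sources used here. For the 2 libraries of a number, NAE and CAE deviations from their group means had r from 0.238 to 0.614 in WT, and from -0.242 at ZT0 to 0.575 in CryKO, so that the numbers may not pair all CryKO libraries. For NTE and CTE, r was 0.0207 at WT ZT0 and at least 0.208 at the other WT times. In the genotype and rhythm tests errors and p-values measure the spread between livers only. The nucleus and cytoplasm tests took the 2 libraries of a liver as independent and left time of day in the error. The test of the ratio between genotypes took them as independent too, with time in the model.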

Additional observations from a re-analysis of the deposited data

Results flagged for a closer look

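The following members had a NAE/CAE ratio that differed between CryKO and WT livers by the test of the difference itself, a genotype by compartment term in edgeR. The differences in log2 ratio were 3.73 for Zfp433, 1.65 for Zfp967, 1.14 for Zfp971, 0.92 for Zfp90, 0.87 for Zfp688, 0.79 for Zfp467, 0.47 for Zfp638 and -0.44 for Zfp326. Zfp433 had log2 ratios per replicate number of 3.27 to 6.14 in CryKO and 0.413 to 5.41 in WT, and 86.8% of its 31-base words are shared with other genes. For Zfp971, 69.5% are shared. The call of Zfp638 was lost in 20 of 24 fits that left out 1 liver, that of Zfp326 in 7, and that of Zfp467 in 1, without WT ZT0 replicate 2.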

How the results depend on the processing

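With library sizes, GC offsets (chosen after seeing the data), no filter, the replicate block or DESeq2, NAE/CAE counts in polyadenylated RNA stayed within 1.5 times. An adjusted p under 0.01 at any fold change gave 198 higher and 26 lower in WT, 218 and 27 in CryKO, and 187 and 23 for NTE/CTE in WT. Library sizes in place of TMM gave 10 higher and 20 lower for NTE/CTE, 73 members differing in NTI, 66 differing ratios, and 1 rhythmic member in WT CAE and 1 in WT NAE, and turned the NTI difference of Zfp318 to -0.02. For CryKO against WT they gave 49 members higher and 59 lower in UTE, 90 and 14 in CAE, and 12 and 16 in NAE. TMM factors from pre-mRNA gave 84 members differing in NTI. GC offsets gave 55 differing in UTE. The replicate block gave 34 differing ratios and 1 rhythmic member in WT CAE. DESeq2 gave 34 differing ratios, rhythmic members of 3 in NTI, 13 in NAE, 8 in CAE and 29 in UTE of WT and 6 in NAE of CryKO, and 1 differing rhythm in NAE and 1 in CAE. The cause of these changes was not tested.

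Leaving out 1 liver gave 66 to 71 higher and 4 to 5 lower for NAE/CAE in WT, 46 to 55 and 6 to 7 for NTE/CTE, 70 to 75 and 4 to 5 in CryKO, 10 to 29 differing ratios (10 without CryKO ZT0 replicate 2, 29 without CryKO ZT8 replicate 1), 155 to 170 differing in NTI, 27 to 38 in NAE, 59 to 84 in CAE and 100 to 177 in UTE. Rhythmic members ranged from 0 to 0 in NTI, 0 to 2 in NAE, 1 to 2 in CAE and 4 to 17 in UTE of WT, and 0 to 0 in NAE and CAE of CryKO, and differing rhythms from 0 to 0 in NAE and 0 to 1 in CAE. Of the called values of named members, 22 were lost with library sizes, 15 with GC offsets, 10 of 24 with pre-mRNA factors, 3 with the block, 1 with DESeq2 and 1 without the filter. Counts of few reads limit members under 1 RPKM, and 2 livers per time limit rhythms.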
